A study of Drosophila melanogaster with 2 samples.

Results

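The mitochondrial ribosomal protein genes of Drosophila melanogaster were examined for binding of the transcription factor Eip74EF in embryos. They were taken as the protein-coding genes of the Ensembl annotation whose symbol begins with mRpL or mRpS, which gave 73 of 13945 genes, 47 for the large and 26 for the small subunit. The rule uses gene names only, but the family was picked with earlier results of these data known. Binding was read from chromatin immunoprecipitation and sequencing (ChIP-seq) of whole embryos of mixed sex, 8 to 16 h old, from the strain Eip74EF-GFP. This stable transgenic line carries Eip74EF with enhanced green fluorescent protein (eGFP) at its C terminus. The labels' description gives an antibody against GFP for the precipitation, whereas their antibody field names Eip74EF. An antibody against Eip74EF itself would also bind untagged protein, and the labels do not settle which was used. The labels give neither the promoter of the transgene nor the state of the untagged gene, and whole embryos mix all tissues. All samples form 1 group of 2 biological replicates, numbered 1 and 3, with no untagged embryos analysed here, so conditions could not be compared and no test was made. The deposited values are peak lists on assembly dm6, 1 for each replicate, 1 for both replicates pooled and 1 that passed the authors' irreproducible discovery rate (IDR) step. Each peak has a summit, its point of highest enrichment, and a signal, the authors' value against a control library. The depth is unknown, since the lists hold no read counts.

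Mitochondria carry their own ribosomes, which make a small set of hydrophobic subunits of the respiratory chain from messages of the mitochondrial genome. Their RNA comes from mitochondrial DNA, whereas all of their proteins are encoded in the nucleus, made in the cytosol and imported. Many of the proteins descend from bacterial ribosomal proteins and the others were added in the mitochondrial lineage. In flies such housekeeping genes often start head to head with a neighbour on the opposite strand, so that a single stretch of DNA serves as promoter for both. Eip74EF is a member of the ETS family, named for the DNA-binding domain that reads sites built around the bases GGAA, and is an early response gene of the steroid hormone ecdysone.

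The reference sequence at member summits is shown for 8 bound genes, because these windows are what the peaks point to. They are the strongest whose windows held at most 30 annotated untranslated bases, after the members of a chromosome arm were set aside. That arm holds mRpL41, mRpS16 and mRpL53. The absence of mRpL41, the member of highest signal, thus says nothing about its window. Each line runs 50 bases to either side of the summit of the IDR list and is read 5′ to 3′ on the strand of the named gene, from RefSeq's sequence of the same assembly. Capitals mark GGAA on the strand shown or its complement TTCC.
mRpS23: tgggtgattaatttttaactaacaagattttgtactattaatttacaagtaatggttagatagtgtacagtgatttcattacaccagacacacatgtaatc
mRpS10: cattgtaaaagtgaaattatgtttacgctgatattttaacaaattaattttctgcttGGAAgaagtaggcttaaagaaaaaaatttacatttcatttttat
mRpL24: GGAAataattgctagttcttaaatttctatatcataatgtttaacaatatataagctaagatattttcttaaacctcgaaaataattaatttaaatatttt
mRpL20: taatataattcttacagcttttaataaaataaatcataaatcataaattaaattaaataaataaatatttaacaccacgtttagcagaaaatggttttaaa
mRpS2: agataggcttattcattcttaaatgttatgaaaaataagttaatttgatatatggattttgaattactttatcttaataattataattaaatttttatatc
mRpS18B: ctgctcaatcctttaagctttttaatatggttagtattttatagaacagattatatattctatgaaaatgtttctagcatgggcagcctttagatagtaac
mRpS7: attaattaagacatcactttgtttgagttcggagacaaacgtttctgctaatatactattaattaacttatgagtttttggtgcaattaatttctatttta
mRpS24: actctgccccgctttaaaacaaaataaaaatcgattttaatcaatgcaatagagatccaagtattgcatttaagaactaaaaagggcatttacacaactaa
The windows lie at chr2L:13835409-13835509 (minus strand) for mRpS23, chr3R:15229489-15229589 (plus strand) for mRpS10, chr2L:4945444-4945544 (minus strand) for mRpL24, chr3L:13018095-13018195 (minus strand) for mRpL20, chr2L:4850491-4850591 (minus strand) for mRpS2, chr2L:20097349-20097449 (minus strand) for mRpS18B, chr2L:10386426-10386526 (plus strand) for mRpS7 and chr3R:24163671-24163771 (minus strand) for mRpS24 on dm6. The base composition can be seen by eye: the windows of mRpL20 and mRpS2 are made almost wholly of A and T. GGAA or its complement was found only in the windows of mRpS10 and mRpL24 among the 8.

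The sequence at the start of transcription is shown for 4 bound members, picked because each holds the short string CAGCTG there. Its presence in all 4 therefore follows from the choice. The limits on arm and untranslated bases given for the summit windows applied here too. Of all 17 bound members, 11 hold the string in a wider promoter window, described below. CAGCTG is a palindrome of the E-box type, the class of site read by helix-loop-helix proteins. Each line holds the 120 bases before the annotated transcription start site (TSS) and the first 30 bases from it, 150 in all, with CAGCTG in capitals.
mRpL24: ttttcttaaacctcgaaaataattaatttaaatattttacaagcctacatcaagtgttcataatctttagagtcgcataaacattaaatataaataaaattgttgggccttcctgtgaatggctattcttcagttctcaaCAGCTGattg
mRpS2: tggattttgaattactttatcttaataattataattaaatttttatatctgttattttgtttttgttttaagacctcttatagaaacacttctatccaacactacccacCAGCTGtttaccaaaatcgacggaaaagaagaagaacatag
mRpS18B: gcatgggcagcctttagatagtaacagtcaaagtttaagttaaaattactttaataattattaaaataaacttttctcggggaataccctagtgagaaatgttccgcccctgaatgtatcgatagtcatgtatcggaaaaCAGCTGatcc
mRpS24: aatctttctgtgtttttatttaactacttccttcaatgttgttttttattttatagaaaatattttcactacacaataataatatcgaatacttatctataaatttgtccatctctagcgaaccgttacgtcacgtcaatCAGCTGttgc
These stretches lie at chr2L:4945332-4945481 (minus strand) for mRpL24, chr2L:4850390-4850539 (minus strand) for mRpS2, chr2L:20097224-20097373 (minus strand) for mRpS18B and chr3R:24163516-24163665 (minus strand) for mRpS24 on dm6. In mRpL24, mRpS18B and mRpS24 the string begins 20 bases after the start, and in mRpS2 it begins 11 bases before it. The mRpS18B stretch also holds tatcgata, the palindrome that the housekeeping factor DREF reads.

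An IDR summit lay within 500 bp of a TSS at 17 of the 73 members, or 23.3% (exact Clopper-Pearson 95% interval 14.2 to 34.6, counting error only). Over all protein-coding genes the share was 15.6%, or 2175 of 13945, a value inside that interval. A gene with such a summit is called bound here. Among the stronger 2502 peaks of the IDR list 7 members were left (9.59%, beside 8.81% of all genes). A summit of the longer pooled list lay there at 39 members, or 53.4% (interval 41.4 to 65.2, again counting error only), beside 38.7% of all genes. Both intervals treat genes as independent, although a summit can count for both genes of a pair, so they are not tests. The replicate 1 list had a promoter summit at 49 members (67.1%, beside 47.2% of all genes) and the replicate 3 list at 34 (46.6%, beside 36%). So the members lay above all genes in each list, and the difference was not tested. The members were in both replicate lists in 33 cases (45.2%, beside 32.5% of all genes), in the replicate 1 list alone in 16 (2059 of all 13945 genes) and in the replicate 3 list alone in 1 (495 of all genes). A further member, mRpL49, had a weak summit in the pooled list alone, at a signal of 44.44, and 22 had none in any list (6792 of all genes).

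**Figure D1:**
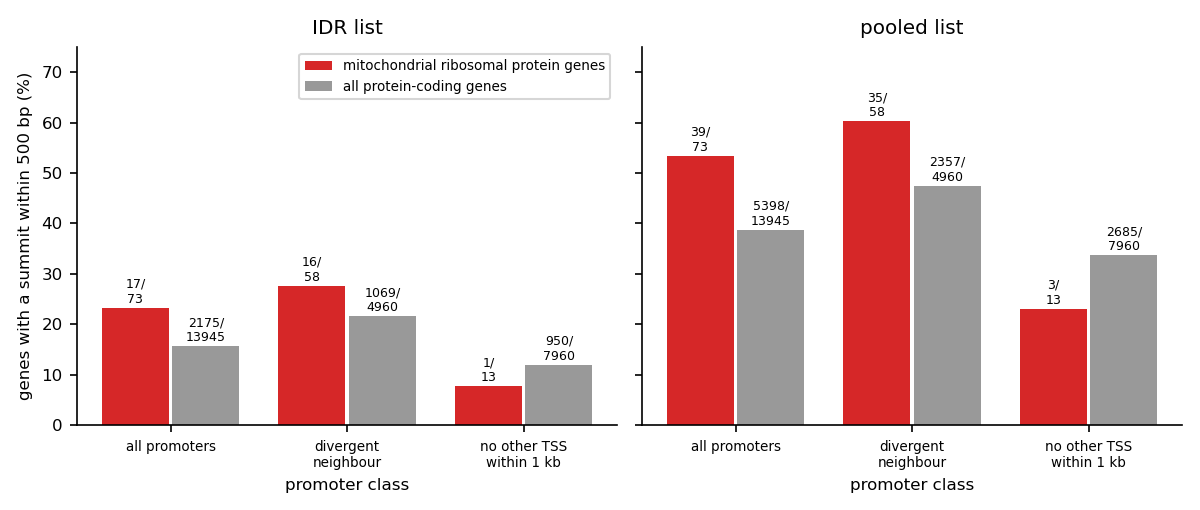
Share of genes with a summit within 500 bp of a TSS (vertical axis, percent), for the 73 mitochondrial ribosomal protein genes in red and for all protein-coding genes in grey, by promoter class on the horizontal axis; the IDR list is on the left and the pooled list on the right, with counts above the bars. The red bar is the higher one over all promoters and over promoters with a divergent neighbour (16 of 58 members in the IDR list), and the lower one where no other TSS lies within 1000 bp (1 of 13).

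The layout of these promoters differed from that of most genes. Another protein-coding gene starts within 1000 bp at 60 of the 73 members (82.2%), beside 42.9% of all genes. For 58 of them (79.5%, beside 35.6% of all genes and 61.2% of the 85 genes for cytosolic ribosomal proteins) the neighbour is divergent, meaning that it runs the other way from a start upstream. The divergent starts lie 20 to 793 bp apart with a median of 283 bp, close to the 298 bp of all divergent genes, and 18 pairs lie within 100 bp. A single TSS is annotated for 67 members (91.8%, beside 73.5%). The pair at the shortest distance is mRpL18 and Taz, 20 bp apart. The shared promoters without a divergent neighbour are those of mRpL13, which has the same TSS as CG10602, and mRpL36, which starts 601 bp from CG7550.

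Of the 17 bound members 16 have a shared promoter, as do 60 of all 73 members (82.2%). With sharing counted only up to 500 bp, these are 15 of 17 and 54 of 73. Of the 60 members with a shared promoter 16 were bound in the IDR list (26.7%, beside 20.5% of all genes with a shared promoter), and all 16 have a divergent neighbour, which makes 27.6% of 58 (interval 16.7 to 40.9) beside 21.6% of all divergent genes. In the pooled list 35 of the 58 had a summit (60.3%, beside 47.5%). Of the 13 members that share no promoter, mRpL19 alone was bound in the IDR list, or 7.69% (interval 0.195 to 36), beside 11.9% of all such genes. The interval is wide because the group is small, and leaving out replicate 1, with the top of the replicate 3 list in place of the IDR list, brings that count to 0. With divergent pairs grouped by distance, 5 of 18 members were bound up to 100 bp (27.8%, beside 19.1% of all such genes) and 3 of 7 beyond that and up to 250 bp (beside 21.6%). Beyond that and up to 500 bp 7 of 28 were bound, at the level of all such genes (25.6%), and farther apart 1 of 5 (beside 17.3%). A gene with several starts has more ways to be counted, so genes with 1 TSS and a divergent neighbour were set side by side. Of these, 13 of 53 members (24.5%) and 16.4% of all genes were bound.

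The bound members fall into 3 groups by signal, drawn after the values were seen. At the top are mRpL41, mRpS23 and mRpS10, whose summits are among the 30 strongest of all 30000 pooled peaks. The next group, mRpL23, mRpL24, mRpL20 and mRpS2, spans signals of 426.1 to 975.0. The other 10 lie between 204.5 and 262.3, close to the lowest signal of the IDR list, 184.6. Over the 17 the median was 257.5, beside 305.0 over all 2175 bound genes, and the median member stood at the 41.1 percentile of the IDR list by signal, beside 56.3 for all bound genes. In the top of the replicate 3 list alone the median member stood at 81.4, over the 13 members found there. These are orders within 1 list and not measured differences in occupancy.

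mRpL41 (FBgn0034001) encodes a large-subunit protein with no bacterial relative. Its summit at position 15217759 of arm 2R, 142 bp upstream of the start, had a signal of 2123 and rank 18 in the pooled list, with 767.6 and rank 22 in replicate 1 and 1365 and rank 18 in replicate 3. The divergent neighbour CG8079 starts 762 bp from mRpL41, so no other gene has a start within 500 bp of this summit. mRpS23 (FBgn0260407), a small-subunit protein that bacteria also lack, had a signal of 2038 and rank 21, with 792.1 (rank 16) in replicate 1 and 1244 (rank 27) in replicate 3. That summit lies 387 bp upstream of mRpS23 but 105 bp from the start of CenG1A, which encodes a GTPase-activating protein for Arf. mRpS10 (FBgn0038307), the counterpart of bacterial S10 in the head of the small subunit, had a signal of 1893 and rank 30, with 657.2 (rank 37) and 1249 (rank 26) in the replicates. Its summit stands midway, 126 bp from mRpS10 and 131 bp from Art3, an arginine methyltransferase gene. For all 3 genes both replicates placed the summit within 7 bp of the pooled one and ranked it among their 37 strongest.

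mRpL23, whose bacterial counterpart lines the exit of the peptide tunnel, had a signal of 975.0 (rank 217), with 341.3 in replicate 1 and 633.1 in replicate 3. Its summit lies 69 bp downstream of the nearest of its 3 starts and 119 bp from CG9004. mRpL24, also a protein of the tunnel exit in bacteria, had 728.0 (rank 407), with 251.3 and 474.8, and the summit lies 133 bp upstream of it and 85 bp from betaggt-I, the gene for the beta subunit of a protein prenylation enzyme. mRpL20, known in bacteria as an early assembly protein of the large subunit, had 653.4 (rank 519), with 260.9 and 398.7, and its summit lies 278 bp upstream and 121 bp from Icmt, the gene for the methyltransferase that finishes prenylated proteins. mRpS2, the counterpart of bacterial S2, had 426.1 (rank 1215), and here the replicates stood further apart, at 107.9 (rank 2554) and 318.3 (rank 933). The summit lies 122 bp upstream of mRpS2 and 100 bp from Mon1, a gene of endosome maturation.

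Of the 10 weaker members, 6 encode large-subunit and 4 small-subunit proteins, and all 10 had a summit within 100 bp of the pooled one in the replicate 1 list. mRpS7, whose bacterial counterpart starts the folding of the small subunit's head, had a pooled signal of 251.4, with 116.4 in replicate 1 and 142.8 in replicate 3, and its summit lies 186 bp from its own start and 214 bp from that of Cdk1, the mitotic kinase. mRpS24, the counterpart of bacterial S3 at the entry of the messenger channel, had 230.6 (64.22 and 167.8) at a promoter facing Apc2, a gene of the Wnt pathway. mRpS16, also of bacterial type, had 223.8 (61.17 and 152.9) and mRpS18B had 257.5 (122.4 and 127.5). Their neighbours are cg, which encodes the zinc-finger protein Combgap, and Kua. In mRpS16 the summit is nearer to cg (93 bp) than to the member (190 bp).

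mRpL27, which in bacteria reaches toward the peptidyl transferase centre, had a pooled signal of 219.2, with 91.57 and 120.5 in replicates 1 and 3, and mRpL21, of bacterial type, had 213.2 (63.35 and 151.6). The mRpL21 summit lies 144 bp from the member and 135 bp from rept, which encodes the ATPase Reptin. mRpL53, a protein without a bacterial counterpart, had the lowest signal among the 17, 204.5 (78.47 and 110.9), and its summit lies 15 bp from AGO1, the Argonaute of the microRNA pathway, but 155 bp from the TSS that mRpL53 shares with CG33155. mRpL19, whose bacterial counterpart sits at the subunit interface, had 224.7 (116.8 and 100.9), 95 bp upstream of a start with no neighbour. mRpL48 (262.3), a protein added in the mitochondrial lineage, and mRpL28 (252.7), one of bacterial type, rested on replicate 1, with 90.94 and 74.72. In replicate 3 the nearest summits lay 1056 bp and 3225 bp away.

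**Figure D2:**
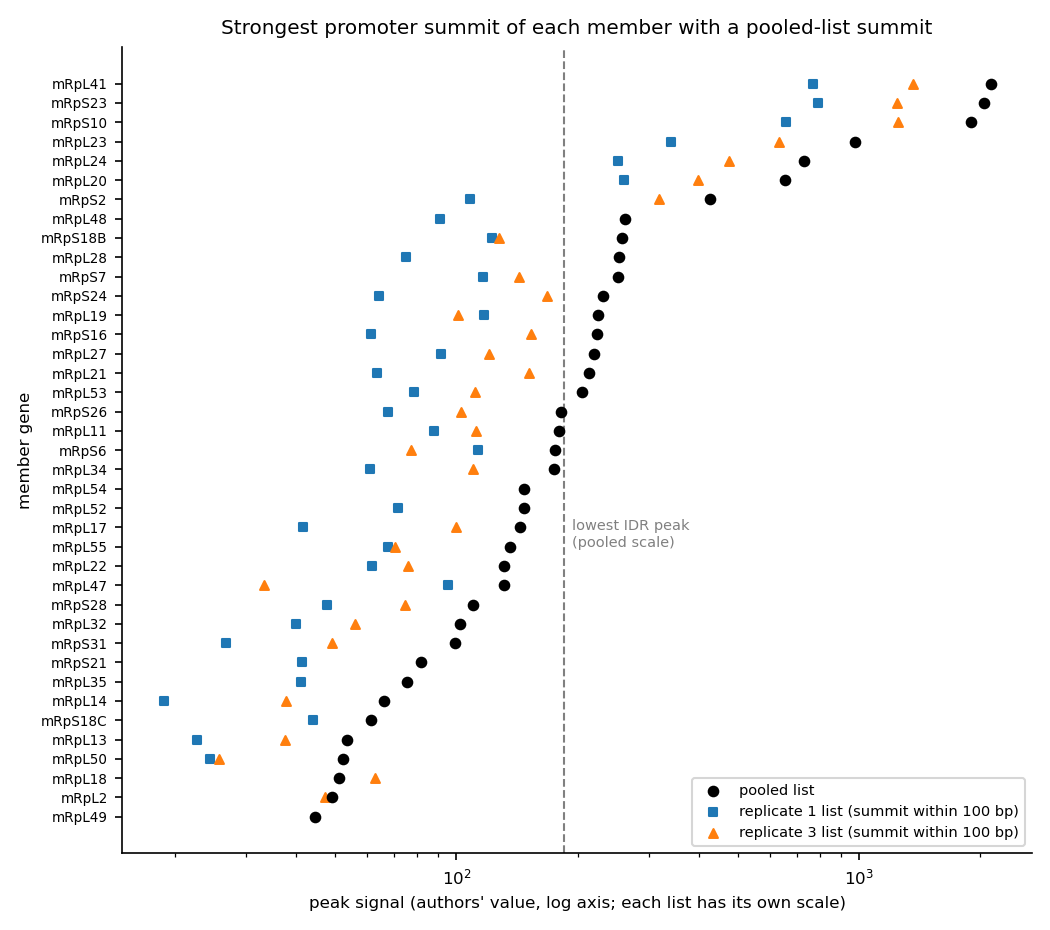
Peak signal on a log axis (horizontal, the authors' value, each list on its own scale) of the strongest promoter summit at each of the 39 members with a pooled-list summit, one gene per line on the vertical axis; black circles are the pooled list, blue squares replicate 1 and orange triangles replicate 3, where that replicate has a summit within 100 bp. mRpL41, mRpS23 and mRpS10 stand apart at 1893 to 2123, and the dashed line marks the lowest signal of the IDR list, 184.6.

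Replicate support was thus uneven along the order. Of the 17 bound members, 15 had a summit in both replicate lists and 2 in replicate 1 only. Among the 5004 strongest peaks of each replicate, as many as the IDR list holds, 14 of the 17 were in the top of replicate 1, 13 in that of replicate 3 and 10 in both. The ratio of replicate 3 to replicate 1 signal had a median of 1.78 and ran from 0.864 at mRpL19 to 2.95 at mRpS2. The scales of the lists differ, so only the order of these ratios among members can be read. The labels call the samples biological replicates, but whether they came from separate embryo collections is not given.

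The IDR list ends among the members with no wide gap in signal. Just inside it are mRpL27 (219.2), mRpL21 (213.2) and mRpL53 (204.5), and just outside it mRpS26 (181.9), mRpL11 (179.8) and mRpS6 (175.3). mRpL34 followed at 174.5, then mRpL54, mRpL52, mRpL17, mRpL55, mRpL22 and mRpL47 between 131.1 and 147.4. Of the 22 members with a pooled but no IDR summit, 18 had a promoter summit in both replicate lists, as had 2369 of 3223 such genes over all. This counts any summit within 500 bp of a TSS, also one away from the pooled summit. The highest of the 22 members are divergent as well: mRpS26 faces CG13698 at 430 bp, mRpL11 faces HtrA2, a mitochondrial protease gene, at 126 bp, and mRpS6 faces Cip4 at 448 bp. mRpL54, with 147.4 in the pooled list, had no summit within 100 bp in either replicate, the nearest being 165 bp away in replicate 1 and 159 bp away in replicate 3. It still counts among the 18 members. Of the 37 pooled member summits outside the IDR list, some of them at bound members, 18 had a summit within 100 bp in both replicates.

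The 22 members without a promoter summit in any list include 14 with a shared promoter and 8 without. Among the former are mRpS14, 21 bp from Naa15-16, and mRpL46, 28 bp from CG2021, so close divergent pairs without a summit exist as well. The promoter of mRpL44 and Snr1, a chromatin remodelling gene, also had none. The 8 are mRpL10, mRpL40, mRpL45, mRpS33, mRpS34, mRpS35, mRpS5 and mRpS9. A gene has no promoter summit here where no peak near its start made these lists, which does not show that the factor was absent there.

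Most summits lay upstream of the member, toward its divergent neighbour. Of the 17, 15 were upstream of the member (88.2%, beside 72.9% of gene and summit pairs over all genes and 76.2% at divergent genes). Their median position was 142 bp upstream, beside 133 bp over all genes, and 13 fell 50 to 200 bp upstream (76.5%, beside 33.6% over all genes and 41.0% at divergent genes). Of the 54 pooled member summits, 24 fell there (44.4%, beside 26.4% and 29.3%). The band of 50 to 200 bp was not planned. It holds the median position of the members and that of all genes, and the gap was not tested. At 11 of the 16 members with a divergent neighbour the summit lay between both starts. Another gene's TSS lay within 500 bp of 15 summits, and 9 of these were nearer to the neighbour and 6 to the member. These counts, and that of summits between both starts, were not made over all divergent genes, so they describe the members only. Since a summit in a shared promoter counts for both genes, it cannot be told apart from these lists which of the pair it belongs to.

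**Figure D3:**
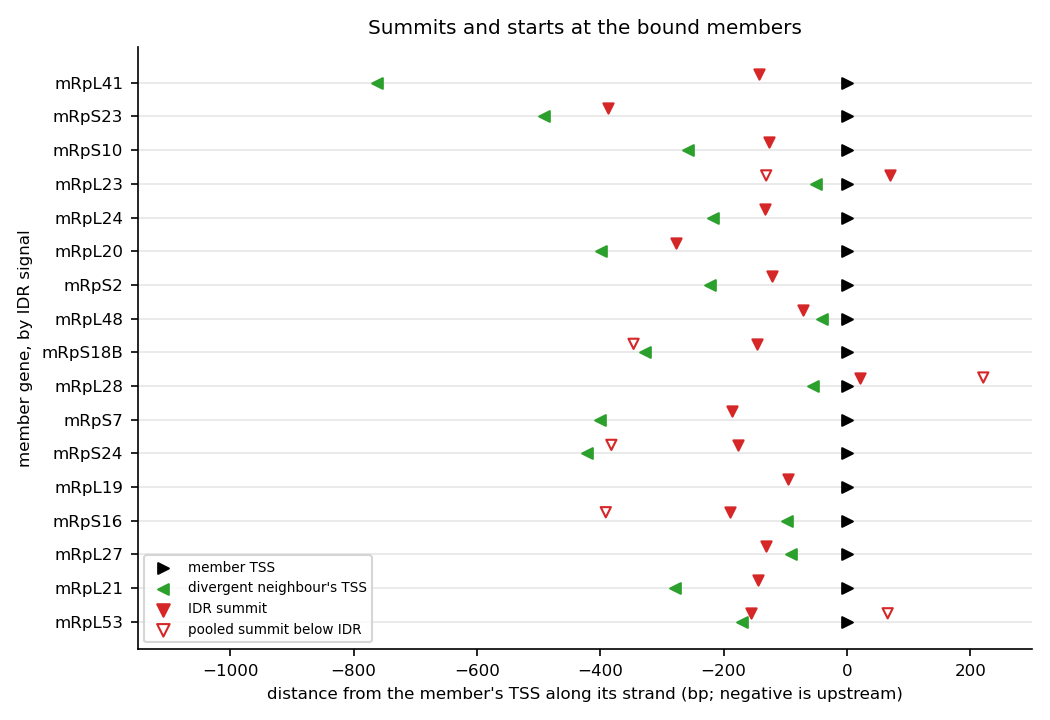
Position of starts and summits at the 17 bound members, ordered by signal on the vertical axis; the horizontal axis is the distance from the member's TSS along its strand in bp, with upstream negative. Black triangles are the members' starts, green ones the divergent neighbours' starts, filled red ones the summits of the IDR list and open red ones the further pooled summits. Most filled red triangles sit upstream of the member, and those of mRpL23 and mRpL28 sit 69 bp and 21 bp downstream.

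Away from the promoters, distances to the nearest IDR summit were counted for the members only. The same was not counted over all genes, so these values do not set the members apart. The nearest IDR summit lay within 500 bp of a start at 17 members, beyond that and up to 2000 bp at 4, up to 10000 bp at 25 and farther away at 27, with a median of 5964 bp. The farthest was that of mRpS5, 1589058 bp. Only mRpS9 had IDR summits inside the gene but off its promoter, 2 of them. The members are short, with a median length of 909 bp beside 2166 bp for all genes. Little of such a gene lies beyond 500 bp of its start, and summits inside genes were not counted over all genes.

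By subunit, 10 of the 47 large-subunit genes (21.3%) and 7 of the 26 small-subunit genes (26.9%) were bound in the IDR list, and 26 of 47 (55.3%) and 13 of 26 had a pooled summit. The order of the subunits thus differed between the lists. Of the 44 genes for proteins of bacterial type, 13 were bound (29.5%), and of the 29 for proteins added in the mitochondrial lineage, 4 were (13.8%). The pooled list gave 27 (61.4%) and 12 (41.4%). These differences were not tested, and the members with the highest and second highest signal, mRpL41 and mRpS23, belong to the latter class.

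By chromosome arm, the bound members were unevenly spread. On arm 2L 8 of 12 members were bound (66.7%, beside 16.5% of all genes of the arm), and on 2R 3 of 12 (beside 16.3%). On 3L 3 of 17 (17.6%, beside 16.9%) and on 3R 3 of 21 (14.3%, beside 15.0%) were bound, close to all genes of these arms. On the X none of 11 was bound, beside 13.2% of all its genes, and 3 of the 11 had a pooled summit, beside 40.9% of its genes. The arms were compared after the positions were seen, and the spread was not tested. In a stretch of 514 kb, chr2L:4459638-4973976, all 4 members were bound (mRpL27, mRpS2, mRpL24 and mRpL28), beside 9 of the 55 other genes that start there (16.4%). This stretch was also picked after its summits were seen.

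The cytosolic ribosomal protein genes give a second reference. Of these 85, 63 were bound in the IDR list (74.1%), with a median signal of 376.9 and a highest one of 779.0. So the mitochondrial genes were bound in a smaller share and had the lower median signal, 257.5, while 4 of them (mRpL41, mRpS23, mRpS10 and mRpL23) exceeded the highest cytosolic one. Of the cytosolic genes with a divergent neighbour 42 of 52 were bound, and of those with no other TSS within 1000 bp 20 of 31. The differences between both families were not tested. A single TSS is annotated for 49.4% of the cytosolic genes, beside 91.8% of the members, and a gene with several starts has more ways to be counted.

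The other nuclear genes for mitochondrial gene expression lay below all genes in the IDR list and above them in the pooled list, which was not tested. Of 48 listed genes 45 were in the annotation, and 2 of these had an IDR promoter summit (4.44%, beside 15.6% of all genes) and 21 a pooled one (46.7%, beside 38.7%), while 25 had a divergent neighbour (55.6%). None of the 8 translation factor genes, the 19 aminoacyl-tRNA synthetase genes and the 11 genes for maintenance and transcription of mitochondrial DNA was bound in the IDR list. The 2 bound genes are among the 7 listed under RNA processing, but 1 of them does not do what the list's name says. PNPase, the mitochondrial polynucleotide phosphorylase, had a summit 82 bp from its start with a signal of 2463 and rank 9, higher than any member. Mppe, known in flies as a metallophosphoesterase of glycoprotein processing and not for mitochondrial RNA, had a signal of 651.2 at rank 523, and its summit lies 104 bp from its start in a promoter facing pds5, a cohesin gene.

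The summits were searched on both strands for ETS-type sites, written as CGGAAG or as the string shifted by 1 base, CCGGAA, and for their common core GGAA, which both of them hold. The other strings were TATCGATA for DREF, GGTCACACT for the promoter factor M1BP, the TATA box as TATAAA, the initiator as TCAGTT, the E-box as CAGCTG and the nuclear receptor site as AGGTCA. Within 50 bp of the 17 member summits CGGAAG occurred at 0, beside 6.83% of the 2063 IDR summits at promoters, and CCGGAA also at 0, beside 4.94%. A count of 0 of 17 allows a share of up to 17.6% (3 counts of the total), so a difference from these shares was not detectable. GGAA occurred at 7 (41.2%, beside 56.1%), but within 100 bp at 14 (82.4%, beside 78.0%), so its order against the reference turned with the window. At the 54 pooled member summits it occurred within 50 bp at 28 (51.9%, beside 53.9%). The 7 are mRpS10, mRpL23, mRpL24, mRpL48, mRpL28, mRpS16 and mRpL21, so mRpL41 and mRpS23 had none in this window. TATAAA occurred at 4 summits (23.5%, beside 20.1%), CAGCTG at 1, that of mRpL28, and each of the other 4 strings at 0. Absence says only that these letters are not in the window.

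The member summits were rich in A and T. The GC content within 50 bp had a median of 25.7% and ran from 15.8% at mRpL20 and mRpS2 to 52.5% at mRpL53, beside medians of 36.6% over all promoter summits, 34.7% at divergent genes and 42.6% at cytosolic ribosomal protein genes. The 7 strongest members, down to rank 1215, had a median of 20.8%, beside 29.7% for all promoter summits down to that rank. The 10 weaker ones had 30.7%, beside 39.6%. This cut follows the groups by signal given above, which were drawn after the values were seen. Both member groups lay below their reference, and strong summits were lower in GC than weak ones among members and among all. Whether base composition plays a part in the peak signal was not tested.

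**Figure D4:**
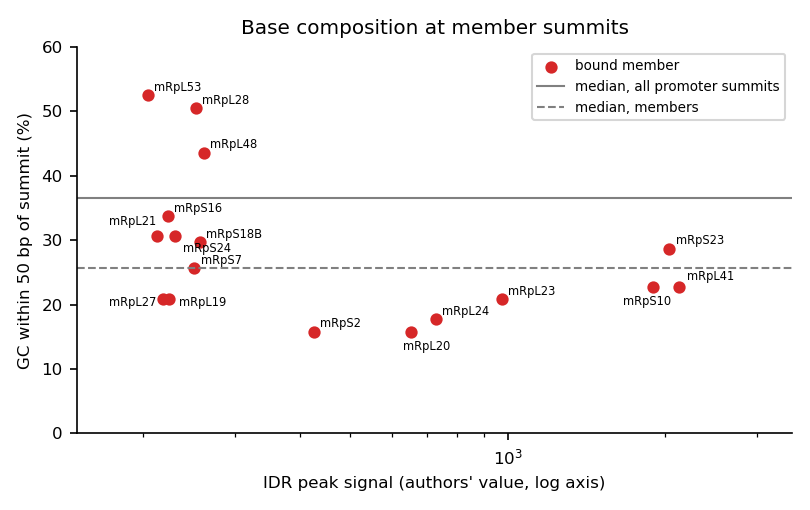
GC content within 50 bp of the summit (vertical axis, percent) against the IDR signal on a log axis (horizontal, the authors' value) for the 17 bound members, each point 1 gene; the solid line is the median of all promoter summits, 36.6%, and the dashed line that of the members, 25.7%. The 7 genes of highest signal all lie below the solid line, and mRpL53, mRpL28 and mRpL48 lie above it.

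In the promoters, taken as 250 bp before to 50 bp after the most upstream TSS, the E-box string CAGCTG showed the largest gap between members and divergent genes of all strings sought. It was present at 40 of 73 (54.8%), beside 17.7% of all promoters and 22.0% of those of divergent genes. At 35 members (47.9%, beside 9.30% of all genes and 12.9% of divergent genes) it lay within 50 bp of the start, and the median position of the nearest copy was 4 bp after the start. The string was on the planned list, and among all 2080 hexamers, a scan made after seeing this value, it had the largest excess over divergent genes, 32.8 percentage points. The next 3 hexamers overlap it. The share was 57.4% in large-subunit and 13 of 26 in small-subunit genes.

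The string was not limited to bound members. It was present at 11 of the 17 bound ones (64.7%) and 29 of the 56 others (51.8%). Nor was it limited to the family: 20 of the 45 other genes for mitochondrial gene expression held it (44.4%), as did 23 of the 60 divergent neighbours of members (38.3%), whose windows can overlap those of the members. Of the 85 cytosolic ribosomal protein genes 7 did (8.24%). Over all bound genes the share was 22.2%, and over all unbound genes 16.8%. The nearest copies had their median at 4 bp after the start and the IDR summits theirs at 142 bp upstream. Within 50 bp of the 17 IDR summits the string occurred at 1 (5.88%, beside 3.64% of IDR promoter summits). Within 100 bp it occurred at 2 (11.8%, beside 207 of 2063). At the 54 pooled member summits it occurred within 50 bp at 8 (14.8%, beside 5.62% of pooled promoter summits). Within 100 bp of them it occurred at 15 (27.8%, beside 11.6%). Member promoters as a whole also hold the string more often than those of all genes (54.8%, beside 17.7%). Whether the share at pooled summits goes beyond that was not tested.

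**Figure D5:**
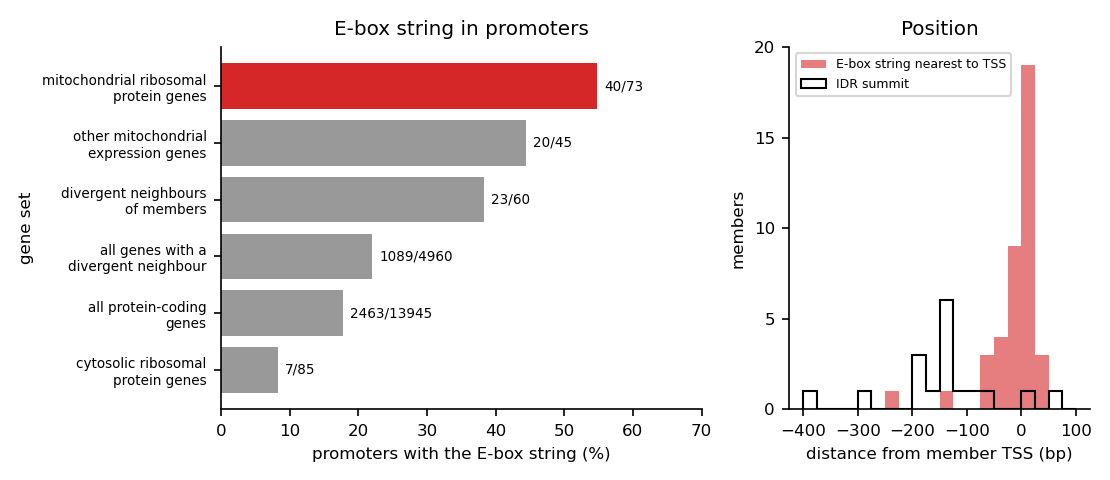
Left, share of promoters that hold the E-box string CAGCTG (horizontal axis, percent) in 6 gene sets on the vertical axis, with counts beside the bars; the members lead with 40 of 73. Right, number of members (vertical axis) by distance from the member's TSS in bp (horizontal axis) for the nearest copy of the string in red and for the IDR summit in outline; the copies gather at the start and the summits upstream of it.

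Among the other strings, TATCGATA was present at 15 member promoters (20.5%), beside 9.36% of all and 15.9% of divergent genes, and GGTCACACT at 8 (11.0%), beside 6.05% and 10.5%. CGGAAG was present at 3 (4.11%, beside 6.32% of all genes), namely mRpL11, mRpS14 and mRpS9, none of them bound in the IDR list. CCGGAA was at 3 (4.11%, beside 6.78%), of which mRpS2 was bound. TATAAA was at 34 (46.6%, beside 45.8%), TCAGTT at 13 (17.8%, beside 26.1%) and AGGTCA at 1, mRpL14 (1.37%, beside 5.88%). GGAA was at 62 (84.9%, beside 88.1%), so it hardly sets promoters apart. The median GC content of the member promoters was 34.7%, beside 38.0% for all genes and 36.3% for divergent genes.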

How the data were processed

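Per the labels, chromatin of whole embryos was sheared by sonication to 200 to 800 bp and precipitated with an antibody given as anti-GFP in one field and as Eip74EF in another. Per the files' descriptions, peak calling by the authors used each replicate and then both pooled, always with a control library, and the IDR list came from these on dm6. Sources used here name no aligner, peak caller or IDR threshold. The deposited signal is the authors' value per peak, with its own scale in each list, and was used only to describe and rank peaks within a list. The deposited −log10 q-value was not used to rank, and the deposited summit offset gave the summit position. Each replicate list and the pooled list has exactly 30000 peaks, and the first 5004 of the pooled list by signal are the IDR list. The depth is unknown, and binomial intervals cover counting error over genes only.

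Summits were placed on Ensembl release 115 (BDGP6.54) and RefSeq's Release 6 sequence, whose arm lengths are the same. A gene was called bound if any of its TSSs had a summit at 500 bp or less, and a promoter as shared when another protein-coding TSS lay within 1000 bp. Replicate summits were paired within 100 bp. One promoter window per gene, at the most upstream TSS, was used for strings. Python 3.11.15, pandas 2.3.3, NumPy 2.4.6, SciPy 1.17.1 and Matplotlib 3.10.9 were used, and the counting steps were tested on simulated data.

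The members and lists were chosen with earlier results of these data known. With 1 group of 2 samples no test was made, and genes are not replicates, so shares are set beside those of all genes. The genes named are all members with an IDR summit and their neighbours, the 10 strongest pooled members without one, those at the edge of the IDR list and up to 3 that rest on few lists. Other members are named after their values were seen. Alternatives were other windows, distances, list lengths, starts and strings, and either replicate left out, with the 5004 strongest peaks of the other in place of the IDR list. Signal tracks were not analysed here.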

Additional observations from a re-analysis of the deposited data

How the results depend on the processing

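Recomputed under other settings, 27 values stayed close to the reported ones and 9 moved, by a loose rule. Counts of 13 or 20 bound members in place of 17, or of 49 in place of 39, were taken as close. The median percentile was judged by the spread between the values with either replicate left out, so 51.1 was taken as close to 41.1. Keeping the stronger 2502 peaks of the IDR list left 7 bound members (9.59%, beside 8.81% of all genes), all 7 at shared promoters and 0 at promoters not shared. Counting a promoter as shared only up to 250 bp left 26 of 60. Up to 500 bp, 2 members without a shared promoter were bound in place of 1. With GGAA in place of CGGAAG 7 summits held the string, and with pooled in place of IDR summits 1 of 54 held CGGAAG. With either replicate left out, the bound members numbered 13 to 20 (all genes 14.5% and 18.1%), those at shared promoters 13 to 19, those at promoters not shared 0 to 1, and members with a summit in the whole list of the other replicate 34 to 49. The median percentile, 41.1 in the IDR list, was 51.1 to 81.4, and it was 81.4 without replicate 1; the cause was not tested. Only 10 members lay in the top of both replicates. No paired analysis was possible because all samples form 1 group. The unknown depth limits what a missing summit means.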
